A study of Mus musculus with 9 samples.

Results

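Cell division in ZFTA-RELA ependymoma was read from 44 genes whose products copy the genome or carry out mitosis. They were taken by symbol from a list, and all 44 were found among the 32285 mouse genes measured. The 19 S-phase members serve origin licensing, nucleotide supply, the replication clamp or the G1/S switch, and the 25 mitotic members act from the end of replication to cytokinesis. Tissue dissected from the brains of 5 tumor-bearing EPZFTA-RELA mice (genotype NestinCreERT2;Fus1) and 4 control mice (NestinCreERT2;TdT) was sequenced cell by cell in droplets. The mice were aged 6 to 8 weeks, with 1 library per sample. Both groups carried NestinCreERT2, a tamoxifen-dependent Cre driven from Nestin. The tumor-bearing mice added a conditional ZFTA-RELA fusion in the Rosa26 locus that is recombined in embryonic radial glia. The control mice added a TdTomato reporter by their genotype label, and the paper shows TdTomato signal in tumor-bearing mice too. The paper describes dissection without choroid, guided by TdTomato, of the tumor and of a matching region of control brain. Cells were dissociated, spun through Percoll and sorted on DAPI and Ter119, a red cell marker. The marker gates described below held tumor, immune, vascular and neural cells. The sample labels do not tie libraries to litters or cultures, so the p-values measure the spread between these libraries.

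A dividing cell passes through an ordered series of steps. In G1, cyclin E with its kinase and the E2F1 factor open the way to DNA replication. The MCM helicase is loaded onto origins with the help of CDC6 and CDT1, ribonucleotide reductase and thymidylate synthase supply nucleotides, and PCNA clamps the polymerases to the template. Cyclins A and B with CDK1 then bring the cell into mitosis, PLK1 and the Aurora kinases build and correct the spindle, and the anaphase-promoting complex with CDC20 and UBE2C destroys the cyclins again. Most neurons of the mature brain have left the cycle, and ependymomas are thought to arise from radial glia, which divide in the embryo.

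Replication and mitosis are commonly tied to different promoter elements, E2F sites at G1/S and the cell cycle genes homology region (CHR) with CCAAT boxes at G2/M, so the sequences upstream of the members were searched. RefSeq promoters of GRCm38.p6, the patch series of the mm10 build named for the data, were matched for 37 of the 44 members in 39 windows of 300 bases each, from 250 bases before to 50 after the transcription start. Mcm4, Gins2, Ccne2, Ccna2, Aurkb, Kif20a and Tpx2 had no entry. An E2F match (TTTCCCGC, TTTGGCGC, TTTGCCGC or TTTCGCGC on either strand) was found in 7 of 17 windows of S-phase members (41.2%), 1 of 22 windows of mitotic members (4.55%) and 2.26% of 32851 mouse promoters. A CHR match (TTTGAA or TTCGAA on either strand) was found in 2 of 17 (11.8%), 17 of 22 (77.3%) and 19.2%, respectively. A CCAAT match on either strand was found in 11 of 17 (64.7%), 20 of 22 (90.9%) and 37.4%, and at least 2 of them in 41.2%, 59.1% and 11.7%. Every mitotic window with a CHR match also held a CCAAT match, 77.3% against 7.52% of all promoters. Matches can overlap each other, and a match is a description of letters and not evidence of binding.

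Of the S-phase members, 2 helicase subunits and the loader Cdc6 are shown as examples of windows with E2F matches and no CHR match. The 250 bases before the start of Mcm6 (chr1:128359706-128359955, minus strand), Mcm5 (chr8:75109259-75109508, plus strand) and Cdc6 (chr11:98907901-98908150, plus strand) are given 5′ to 3′ along the strand of the gene, with E2F and CCAAT matches on either strand in capitals.
Mcm6: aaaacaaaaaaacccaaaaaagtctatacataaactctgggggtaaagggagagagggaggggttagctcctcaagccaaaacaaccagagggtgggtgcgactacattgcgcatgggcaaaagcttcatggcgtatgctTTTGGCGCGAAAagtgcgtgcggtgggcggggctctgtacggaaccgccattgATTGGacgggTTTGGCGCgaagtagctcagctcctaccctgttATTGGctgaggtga
Mcm5: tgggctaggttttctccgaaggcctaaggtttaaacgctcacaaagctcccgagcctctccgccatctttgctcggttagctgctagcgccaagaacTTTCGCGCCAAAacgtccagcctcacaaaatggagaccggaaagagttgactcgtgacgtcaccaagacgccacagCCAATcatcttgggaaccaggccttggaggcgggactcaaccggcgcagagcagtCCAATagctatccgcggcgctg
Cdc6: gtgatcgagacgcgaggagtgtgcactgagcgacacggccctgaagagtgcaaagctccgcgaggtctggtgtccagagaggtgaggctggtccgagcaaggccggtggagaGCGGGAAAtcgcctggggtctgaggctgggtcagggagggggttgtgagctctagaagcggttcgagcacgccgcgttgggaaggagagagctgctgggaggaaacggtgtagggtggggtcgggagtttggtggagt
In Mcm6, the 3 E2F matches began at positions -110, -106 and -47 from the start, the first pair overlapping.

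Of the mitotic members, the kinase Cdk1, the ubiquitin-conjugating enzyme Ube2c, the topoisomerase Top2a and the proliferation antigen Mki67 are shown as examples of windows with CHR and CCAAT matches. The same stretches of Cdk1 (chr10:69352913-69353162, minus strand), Ube2c (chr2:164769679-164769928, plus strand), Top2a (chr11:99024190-99024439, minus strand) and Mki67 (chr7:135716380-135716629, minus strand) have CHR, CCAAT and E2F matches in capitals.
Cdk1: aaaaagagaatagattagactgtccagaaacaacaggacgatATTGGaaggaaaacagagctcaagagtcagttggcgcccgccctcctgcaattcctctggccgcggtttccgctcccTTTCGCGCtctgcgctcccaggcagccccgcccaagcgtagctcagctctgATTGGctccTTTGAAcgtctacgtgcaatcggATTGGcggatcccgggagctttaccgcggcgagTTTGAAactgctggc
Ube2c: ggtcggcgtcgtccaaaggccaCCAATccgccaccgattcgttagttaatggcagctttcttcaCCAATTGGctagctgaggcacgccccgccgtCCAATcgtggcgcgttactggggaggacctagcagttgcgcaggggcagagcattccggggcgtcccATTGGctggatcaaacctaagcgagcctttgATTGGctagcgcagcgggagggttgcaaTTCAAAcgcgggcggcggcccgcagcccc
Top2a: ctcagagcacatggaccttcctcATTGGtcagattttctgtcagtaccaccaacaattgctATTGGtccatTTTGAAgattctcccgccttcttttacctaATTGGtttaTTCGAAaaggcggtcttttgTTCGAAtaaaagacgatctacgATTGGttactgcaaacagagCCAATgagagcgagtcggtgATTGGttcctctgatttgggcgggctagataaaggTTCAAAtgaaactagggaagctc
Mki67: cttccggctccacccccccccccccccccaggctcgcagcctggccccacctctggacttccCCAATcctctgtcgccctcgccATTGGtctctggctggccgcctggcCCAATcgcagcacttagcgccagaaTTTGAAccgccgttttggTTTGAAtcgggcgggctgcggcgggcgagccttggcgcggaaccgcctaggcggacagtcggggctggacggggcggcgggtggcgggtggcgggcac
Cdk1 was the only mitotic member with an E2F match in its window, beside 2 CHR and 3 CCAAT matches. Top2a held 4 CHR and 6 CCAAT matches, and Ube2c held 1 and 6.

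Sequencing gave 4023 to 6366 kept cells per control library and 1587 to 5103 per tumor library, with medians of 2031 to 4117 and 2068 to 6526 UMIs per cell. The count depended on the filter. In tumors 1 to 5 it was 2366, 3063, 1587, 5103 and 3645 cells. A fixed mitochondrial limit of 10% gave 1254, 3052, 4287, 9177 and 9138, and 3842 to 5052 in controls. A UMI is a random tag by which copies of 1 RNA molecule are counted a single time. In each of the 28 pairs among 8 libraries, 1 to 9 cell barcodes were shared, at most 0.261% of the smaller library. Cells were gated by 12 lists of 10 marker genes, and a cell entered a gate with at least 3 markers of its list and at least 2 more than of the next. Tumor cells were gated in tumor samples by at least 1 UMI of the fusion, luciferase or IRES sequence of the tumor allele, outside the immune, vascular and red cell gates, and cells so gated were taken out of the glial and neuron gates but not out of the progenitor gate. The tumor-cell gate held 78, 892, 93, 3538 and 1188 cells in tumors 1 to 5, and its 10 progenitor markers summed to 1428 to 4601 CPM (UMIs of a gene per 1000000 UMIs of the library or gate) where control brains had a mean of 280 ± 20.1 over all kept cells (SD, n = 4). Its 10 neuron markers summed to 1866 CPM in tumor 1, above the progenitor markers there (1428 CPM), and to 292 to 764 CPM in the other 4 tumors. RNA of the tumor allele (fusion and luciferase) stood at 14.9 to 303 CPM in tumors and at 0 in controls 1 to 3, and it was not read in control 4. Neuron-gated cells, which in tumors are those without an allele UMI, served as the reference, because free RNA in a droplet gives UMIs to cells that do not make the transcript. Since cells with an allele UMI were taken out, these neurons held 0 CPM of allele RNA in tumors by construction, and the reference may be too low. Their progenitor markers summed to 282, 335, 676 and 826 CPM in tumors 1, 2, 3 and 5 and to 258 to 282 CPM in controls, so in tumors 3 and 5 this gate also held RNA of the progenitor list, and whether tumor cells without an allele UMI stood in it was not tested. Low barcodes differed between the groups too. Of each library the 3000 shallowest barcodes were summed, which had medians of 559 to 1338 UMIs and are not shown to be empty droplets, and there the 25 mitotic members came to 149, 826, 297, 900 and 1473 CPM in tumors 1 to 5 and to 34.7 to 40.5 CPM in controls. Allele RNA stood at 13.7 to 234 CPM in these barcodes of the tumors and at 168 CPM in the myeloid gate of tumor 4. Cells of the tumor-cell gate were deeper, with medians of 3003.5, 6469, 4337, 7026.5 and 4570.5 UMIs against 2068, 4526, 2439, 6526 and 3813 over all kept cells. How many cells entered the tumor-cell gate through free allele RNA was not tested.

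Over all kept cells, tumor samples held more RNA of nearly the whole program than control brains. The 25 mitotic members summed to 378, 1455, 400, 1434 and 2075 CPM in tumors 1 to 5 against 67.7 to 75.3 CPM in controls. The 19 S-phase members summed to 251, 845, 465, 722 and 949 CPM against 197 to 211 CPM. All tumors lay above all controls in both sums, tumors 1 and 3 being the lowest of the 5. The gap was wider for mitosis than for replication, and the ratio of S-phase to mitotic UMIs was 2.82 ± 0.175 (SD, n = 4) in controls and 0.673 ± 0.284 (n = 5) in tumors, without overlap. In sums over all cells, fewer cells of a type and less RNA per cell cannot be told apart, and the mix of cells differed: the neuron gate held 3224 to 5053 cells of each control library and 0 to 574 of each tumor library.

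In the edgeR quasi-likelihood test over all 17593 genes (Benjamini-Hochberg, threshold 0.05), 41 of the 44 members were higher in tumors and 1 was lower, where 32.2% of all genes tested were higher and 29.4% lower. By role, 8 of 9 helicase and origin genes, 7 of 7 genes for nucleotides, clamp and S-phase processing and 2 of 3 G1/S switch genes rose, as did 24 of 25 mitotic members. The median log2 fold change was 2.86 for S-phase members and 4.56 for mitotic members, beside 0.04 for all genes tested. In CPM, every tumor mouse exceeded every control mouse for 13 of 19 S-phase and 24 of 25 mitotic members, against 23.8% of all genes. Scaling by total UMIs in place of TMM lowered the median of all genes by 0.24 on the log2 scale and gave 39 members higher.

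**Figure D1:**
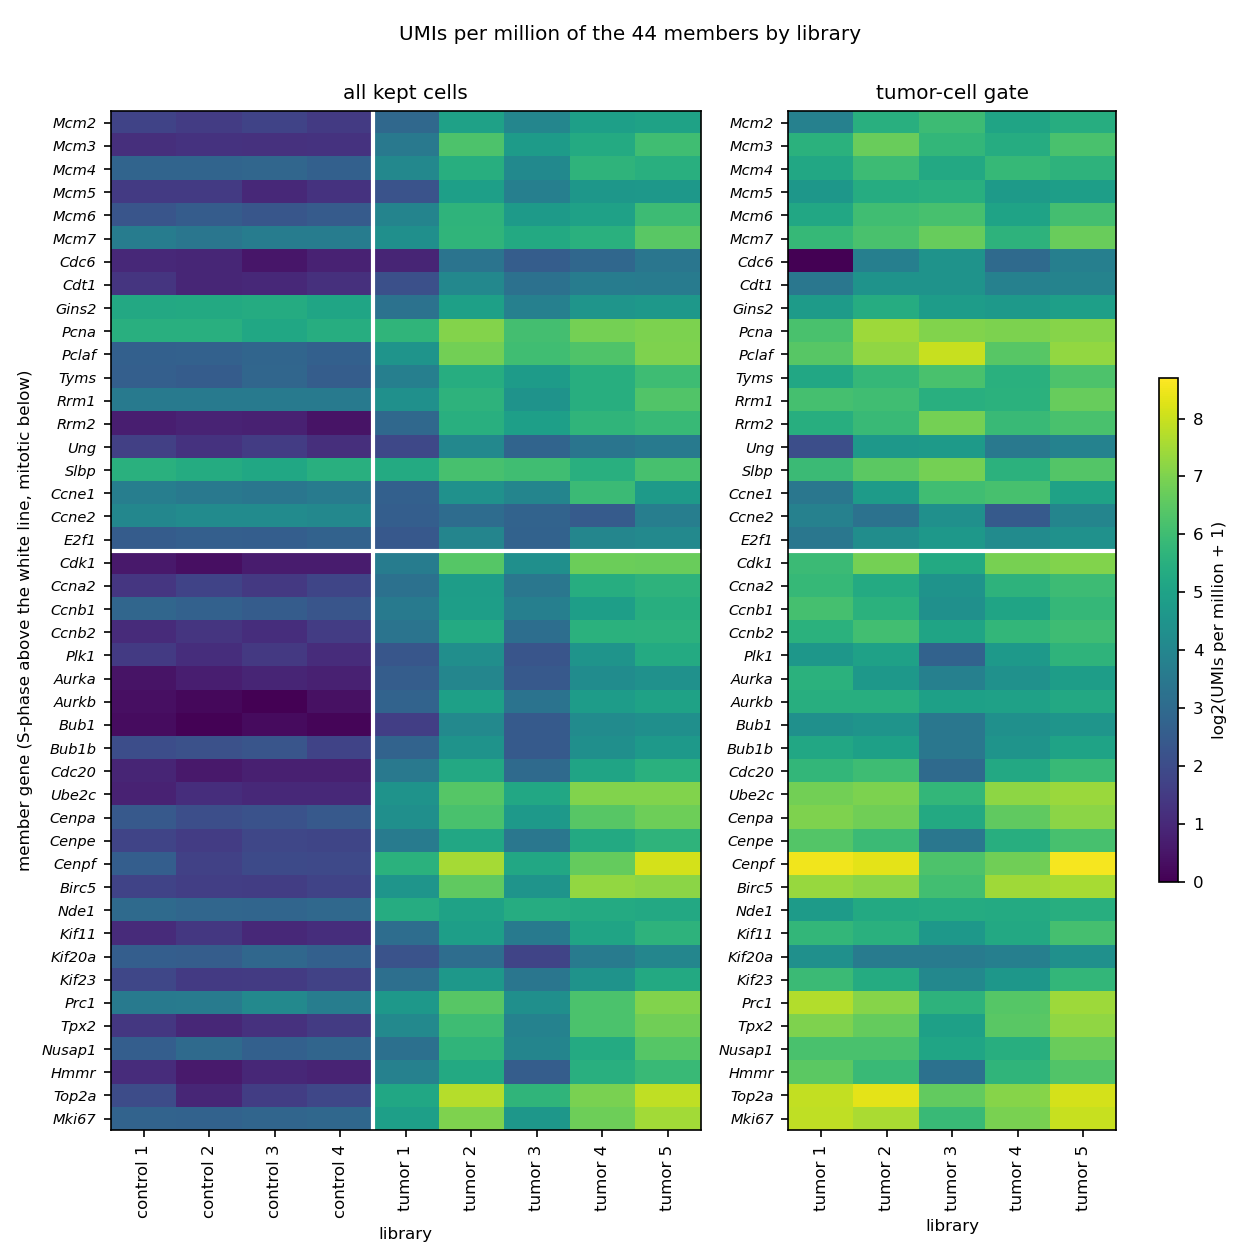
CPM of the 44 members on a log2(value + 1) colour scale, by library, over all kept cells (left) and in the tumor-cell gate (right), S-phase members above the white line and mitotic members below. Controls are dark for most mitotic members. Over all kept cells Gins2 is higher in each control than in each tumor, and Slbp is as bright in controls as in some tumors. Tumor 3 is bright in the upper block and dim in the lower block of the tumor-cell gate.

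Among the S-phase members, most helicase and all nucleotide genes rose. Mcm3, a subunit of the replicative helicase, had 10.5, 76.4, 26.2, 39.1 and 65.0 CPM in tumors 1 to 5 and 1.24 to 1.44 CPM in controls. All tumor values exceeded all control values, and the log2 fold change was 5.32 ± 0.67 (SE, edgeR adjusted p = 0.000288). Rrm2, the regulated subunit of ribonucleotide reductase, had 6.6, 43.7, 29.1, 50.7 and 57.4 CPM against 0.368 to 0.837 CPM, again without overlap, for a log2 fold change of 6.17 ± 0.73 (edgeR adjusted p = 0.000244). Pclaf, a PCNA-binding factor, rose by 4.2 ± 0.55 and the other MCM subunits, Mcm2 and Mcm4 to Mcm7, by 2.42 (Mcm7) to 3.97 (Mcm5) on the log2 scale.

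A few S-phase members did not follow. Gins2, a component of the active helicase, had 33.7 to 40.3 CPM in controls and 8.80, 29.6, 12.8, 22.1 and 23.9 CPM in tumors 1 to 5. Each tumor lay below each control, yet the log2 fold change of -0.61 ± 0.39 did not pass (edgeR adjusted p = 0.193), and with total UMIs as the scale it was -0.93 (adjusted p = 0.0281). Ccne2, a cyclin E, fell by 0.93 ± 0.32 on the log2 scale (edgeR adjusted p = 0.0288), from 15.2 to 17.2 CPM in controls to 5.08, 7.52, 5.82, 4.65 and 12.3 CPM in tumors. This call was lost when any single control or tumor 3 or 4 was left out (adjusted p up to 0.0652). Its paralog Ccne1 had 9.59 to 12.3 CPM in controls and 5.42, 20.2, 14.4, 59.7 and 25.7 CPM in tumors, overlapping only through tumor 1, with a log2 fold change of 1.57 ± 0.62 (edgeR adjusted p = 0.0490). Its call was lost without tumor 2, 4 or 5 or any control, and was 0.88 without tumor 4 (adjusted p = 0.115). In control neurons, Pcna, Slbp and Gins2 alone supplied 57.2% to 59.3% of the S-phase UMIs, and in the tumor-cell gate 21.1% to 26.9%. Gins2 was at 36.0 to 43.6 CPM in control neurons and 25.1 to 40.8 CPM in the tumor-cell gate, ranges that overlapped.

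Of the 25 mitotic members 24 rose, and several were close to absent from controls. Cdk1, the kinase that drives entry into mitosis, had 11.5, 83.1, 19.1, 107 and 103 CPM in tumors 1 to 5 and 0.279 to 0.598 CPM in controls. Ube2c had 21.0, 83.6, 35.9, 132 and 131 CPM against 0.799 to 1.21 CPM, and Top2a had 35.2, 211, 50.5, 123 and 232 CPM against 0.930 to 3.05 CPM. Tumors and controls did not overlap in any of the 3 genes, and tumors 1 and 3 were the lowest each time. The log2 fold changes were 7.41 ± 0.95 for Cdk1, 6.65 ± 0.75 for Ube2c and 6.28 ± 0.81 for Top2a, with edgeR adjusted p of 0.000302, 0.000197 and 0.000315. Aurkb, the kinase that corrects chromosome attachment, and Bub1, a spindle checkpoint kinase, changed by 7.05 ± 0.90 and 6.82 ± 0.94. Kif20a, a cytokinesis motor, was the mitotic member that did not pass, with 2.47 to 14.8 CPM in tumors and 4.98 to 6.44 CPM in controls (log2 0.90 ± 0.53, edgeR adjusted p = 0.160).

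Nde1, a dynein regulator that acts at centrosomes and kinetochores, behaved unlike the other mitotic members. It had 41.1, 31.4, 40.4, 38.6 and 37.5 CPM in tumors 1 to 5 and 6.18 to 6.98 CPM in controls, so that tumors 1 and 3 were no lower than the rest. The log2 fold change was 2.78 ± 0.16, the smallest standard error of any member (edgeR adjusted p = 4.77e-05). Within the tumor-cell gate it stood at 26.4 to 43.2 CPM, and in the endothelial gate of the same tumors at 56.8, 20.9, 60.6, 48.2 and 52.8 CPM, above the tumor-cell gate in all but tumor 2.

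Other genes of the program were counted over all kept cells against the 32.2% of all genes higher and 29.4% lower. Of 57 other replication genes, 45 were higher, 3 lower and 9 not called, and of 77 other mitotic genes, 69 were higher, none lower and 8 not called. Uhrf1, which keeps DNA methylation through replication, changed by 5.77 ± 0.74 and Asf1b, a histone chaperone, by 5.14 ± 0.65 on the log2 scale. Pimreg, a mitotic regulator, changed by 6.76 ± 0.80. Of 20 genes that hold the cycle back, 13 were higher too, among them Cdkn1a (p21) by 4.97 ± 0.40, Cdkn2c (p18) by 5.31 ± 0.45, Gadd45g by 3.61 ± 0.34 and Btg2 by 3.17 ± 0.40.

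Within the tumor-cell gate, the 5 tumors differed in whether S-phase or mitotic members were high. S-phase members summed to 650, 1126, 1303, 789 and 1120 CPM in tumors 1 to 5, and mitotic members to 2427, 2265, 796, 1617 and 2714 CPM. The ratio of S-phase to mitotic UMIs was 0.268, 0.497, 1.64, 0.488 and 0.413. Tumor 3 was thus the one tumor with more S-phase than mitotic RNA, and tumor 1 stood at the other end. In tumor 1, 7 cells with at least 5 mitotic members held 97.8% of the mitotic UMIs. By share of thinned cells with at least 2 members, S-phase was above mitotic in each of tumors 1 to 4. The shares were 11.3% against 9.68%, 33.3% against 27.4%, 26.3% against 15.0% and 22.0% against 20.6%. Tumor 5 had 36.4% against 42.7%. By this measure tumor 3 did not stand alone, and tumor 1 was the lowest for mitotic members. Tumors 3 and 1 had few gated cells, 93 and 78, and in tumor 1 neuron markers were the higher of the lists, as given above.

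The same split ran through single members. Tumor 3 was the highest of the 5 for 10 of 19 S-phase members and the lowest for 24 of 25 mitotic members. The members were read from the same few cells and are not separate observations. In tumor 3, 11 cells with at least 5 mitotic members held 85.1% of its 563 mitotic UMIs. The gate held 303299 UMIs in tumor 1 and 707707 in tumor 3, the fewest of the 5, so low values there rest on few UMIs. Pclaf was at 252 CPM in tumor 3 and at 85.7 to 154 CPM in the other 4, and Rrm2 was at 116 CPM against 42.9 to 73.4 CPM. Cdc20, the activator of the anaphase-promoting complex, was at 7.07 CPM in tumor 3 and 37.5 to 62.2 CPM in the other 4. Hmmr, a spindle assembly factor, was at 8.48 CPM against 50.6 to 89.0 CPM, and Cenpe, a kinetochore motor, at 9.89 CPM against 42.4 to 82.4 CPM. Tumor 1 was the lowest for 12 of 19 S-phase members, and Cdc6 had no UMI there while the other 4 tumors had 6.99 to 21.2 CPM. With 1 library per tumor and no second library of either mouse, these contrasts between single tumors carry no test.

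**Figure D2:**
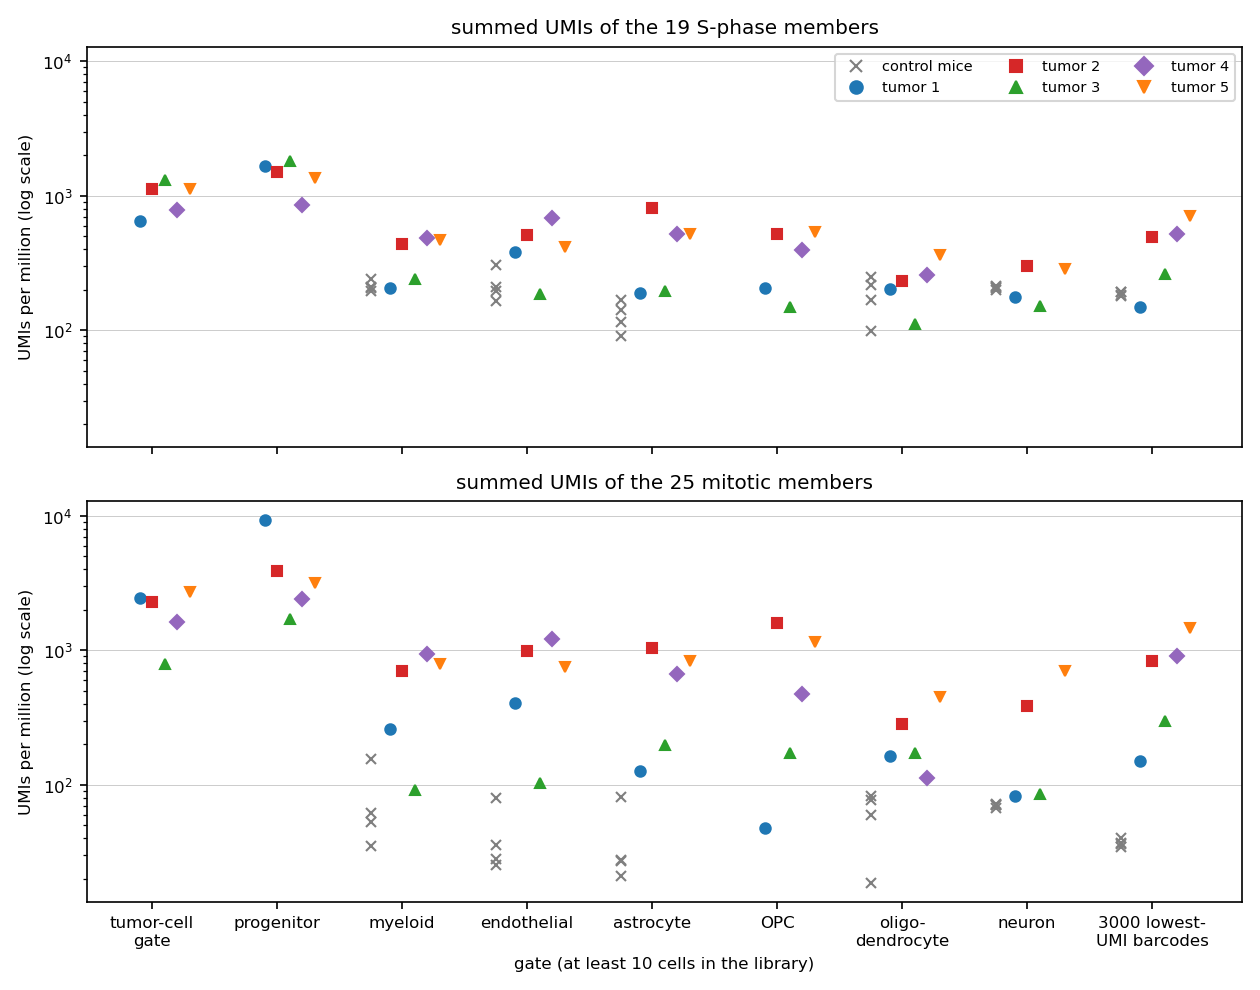
Summed CPM (log axis) of the 19 S-phase members (top) and 25 mitotic members (bottom) by gate, 1 point per library with at least 10 gated cells, control mice as grey crosses and tumors 1 to 5 as coloured symbols. Of the gates plotted, the tumor-cell and progenitor gates lie highest for mitotic members within each tumor (the mural gate, at 2180 CPM in tumor 4 from 39 cells, is not plotted), the myeloid, endothelial and astrocyte gates of tumors 2, 4 and 5 lie above the controls, and tumor 3 is among the highest for S-phase and the lowest for mitotic members in the tumor-cell gate.

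The signal was then compared between gates of the same tumors, with the mouse as a block in the edgeR fit. In the myeloid gate, mitotic members summed to 260, 699, 92.0, 943 and 795 CPM in tumors 1 to 5, and in the endothelial gate to 403, 986, 102, 1222 and 751 CPM. The tumor-cell gate was above both in all 5 tumors. Of 44 members tested against the myeloid gate, 35 were higher in the tumor-cell gate and none lower, 12 of 19 S-phase and 23 of 25 mitotic, where 22.2% of 11990 genes were higher and 20.8% lower. Against the endothelial gate 38 members could be tested, and 25 were higher and none lower, 7 of 14 and 18 of 24, where 21.2% of 8902 genes were higher and 21.4% lower. Both comparisons use the same tumor-cell sums, and a member low in the endothelial gate could pass the filter through the tumor-cell gate alone, so the counts describe the members fitted.

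**Figure D3:**
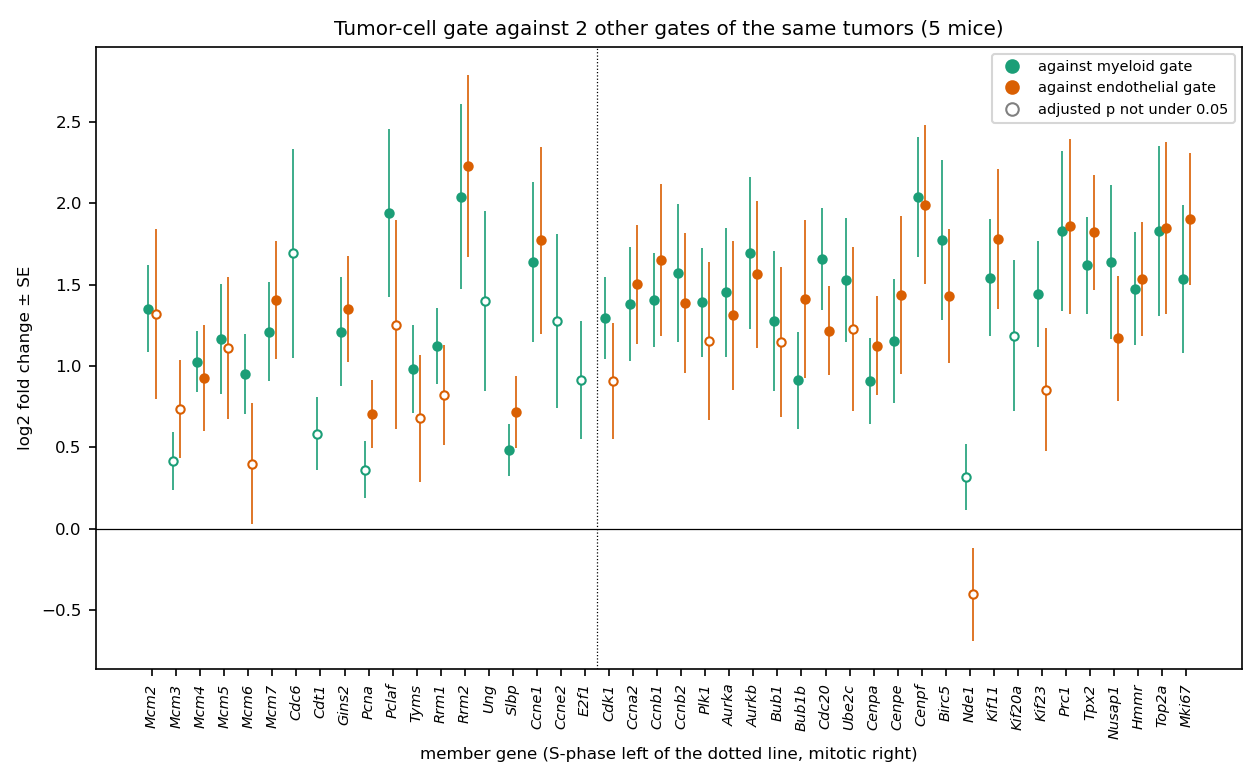
Log2 fold change ± SE (edgeR, mouse as block, 5 mice) of each member in the tumor-cell gate against the myeloid gate (green) and the endothelial gate (orange), filled where the adjusted p is under 0.05, S-phase members left of the dotted line. Nearly all points lie above 0, Rrm2 and Cenpf reach about 2 in both, and Nde1 alone lies below 0, against the endothelial gate.

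Cenpf, a large kinetochore protein, had 363, 326, 76.3, 112 and 383 CPM in the tumor-cell gate of tumors 1 to 5 and 25.3, 58.3, 8.45, 64.2 and 75.7 CPM in their myeloid gate. It was higher in 5 of 5 tumors, by 2.04 ± 0.37 on the log2 scale (edgeR adjusted p = 0.00353). Rrm2 had 42.9, 58.4, 116, 59.3 and 73.4 CPM against 0, 18.3, 1.99, 24.3 and 18.6 CPM, a log2 difference of 2.04 ± 0.57 (edgeR adjusted p = 0.0204), and against the endothelial gate it differed by 2.23 ± 0.56. The members that did not pass against the myeloid gate were Mcm3 (0.42 ± 0.18), Cdc6, Cdt1, Pcna (0.36 ± 0.17), Ung, Ccne2, E2f1, Nde1 (0.32 ± 0.20) and Kif20a. Leaving out tumor 2 left 13 members called against the myeloid gate and leaving out tumor 5 left 22, and against the endothelial gate 16 and 13. Without the block the counts were 13 and 12. Total UMIs as the scale raised the median of all genes by 0.37 and 0.18 on the log2 scale and gave 44 and 30 members, with 5130 genes higher and 1752 lower in place of 2661 and 2491, and 2553 and 1615 in place of 1890 and 1909.

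Other genes of the cycle were counted between the same gates. Against the myeloid gate 34 of 55 other replication genes and 62 of 76 other mitotic genes were higher in the tumor-cell gate, and 1 mitotic gene was lower. Rfc4, of the clamp loader, differed by 1.61 ± 0.27 and Ube2s, the partner of UBE2C in chain building, by 1.22 ± 0.20 on the log2 scale. The brakes were split, with 7 higher and 3 lower of 20, and Btg1, an antiproliferative factor, fell by 2.07 ± 0.17. Against the endothelial gate 21 of 41 and 41 of 56 genes were higher, and Cdkn1a fell by 2.53 ± 0.22 while the related inhibitor Cdkn1c (p57) rose by 2.70 ± 0.25.

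Myeloid cells of 4 of the 5 tumors held more mitotic RNA than those of any control brain, although few members could be tested. Mitotic members summed to 34.9 to 156 CPM in the 81 to 144 gated cells of each control and to 92.0 to 943 CPM in the 258 to 690 gated cells of each tumor, tumor 3 lying inside the control range. Only 13 members, 7 S-phase and 6 mitotic, had enough UMIs for the edgeR fit, and of the 8790 genes in it 15.5% were higher and 17.7% lower. Of these 13, 9 were higher and none lower, 3 S-phase and 6 mitotic, but a member could pass the filter through the tumors alone, so the count describes these members and not all 44. With limma voom 0 members were called.

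Cenpf had 3.55, 2.49, 3.51 and 0 CPM in the myeloid gate of controls 1 to 4 and 25.3, 58.3, 8.45, 64.2 and 75.7 CPM in that of tumors 1 to 5. Every tumor was above every control, with a log2 fold change of 4.72 ± 0.92 (edgeR adjusted p = 0.0026). Ube2c had no UMI in any control and 16.9, 44.7, 2.49, 85.4 and 47.5 CPM in tumors, at least 22.1-fold higher against a floor of 3 UMIs over the pooled controls. The bound pools the tumors, of which tumor 4 was the highest, and tumor 3 lay near the floor of 2.24 CPM. With no control UMI, Ube2c passed the filter through the tumors alone. Cenpa, the centromeric histone, changed by 2.65 ± 0.60 and Mki67 by 3.09 ± 1.03. Nde1 changed by 0.99 ± 0.32. Top2a had 24.9 CPM in control 1, no UMI in the other 3 controls, and 22.5, 83.6, 1.49, 77.1 and 111 CPM in tumors, so tumors 1 and 3 lay below control 1. Of the S-phase members, Mcm3 (1.51 ± 0.38), Pcna (0.82 ± 0.27) and Tyms, thymidylate synthase (1.85 ± 0.63), rose, and every one overlapped between groups. Mcm4, Mcm7, Rrm1 and Slbp did not pass, with log2 fold changes of 1.31, 1.63, 0.85 and 0.25. Every tumor lay above every control for 3 of these 6 mitotic and 0 of these 7 S-phase members, against 7.29% of all genes.

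Other signals moved with this result. The myeloid gate of tumors 1 to 5 held 7.04, 26.7, 1.99, 168 and 24.8 CPM of tumor-allele RNA, and neuron-gated cells of tumors 1, 2, 3 and 5 held 82.0, 385, 86.0 and 699 CPM of mitotic members where control neurons held 66.6 to 71.8 CPM. In myeloid cells without a tumor-allele UMI or a progenitor marker, a choice made after seeing the data, 2 members could be tested and 0 passed in the edgeR fit, Pcna at 0.27 and Slbp at 0.14 on the log2 scale. In those cells mitotic members summed to 211, 31.9, 43.7 and 79.5 CPM in controls and 362, 418, 80.7, 416 and 444 CPM in tumors. The control sums rest on 38, 4, 3 and 10 mitotic UMIs from 94, 32, 22 and 32 cells. Those of tumors 1 to 5 rest on 156, 473, 49, 115 and 96 UMIs from 164, 245, 149, 51 and 52 cells. The number of members called went from 9 to 2 without tumor 2 or tumor 5, to 3 without tumor 4 and to 15 without control 1. With total UMIs as the scale it was 4, with 759 genes higher and 2593 lower in place of 1361 and 1558. How much of the myeloid signal came from free or adhering tumor RNA was not tested.

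In the endothelial gate the controls had 13 to 18 cells each, and no member passed. Mitotic members summed to 25.4 to 79.6 CPM in controls and to 403, 986, 102, 1222 and 751 CPM in tumors 1 to 5. All tumors were above all controls, tumor 3 by least. The sums of controls 1 to 4 rest on only 1, 2, 9 and 3 mitotic UMIs, and that of tumor 3 on 86. Of 11 members fitted, 0 were called by edgeR, where 9.96% of 6242 genes were higher and 8.12% lower and 2034 genes had an unadjusted p under 0.05. DESeq2 called 2 members, and edgeR with the replicate number as a block called 5. Nde1 differed by 1.65 ± 0.60 (edgeR adjusted p = 0.0699). Of the 44 members, 25 had no UMI in any endothelial control, and those among them that were fitted passed the filter through the tumors alone. Pooled over mice, 8 of these 25 were in tumors too below the floor of 3 control UMIs, so no fold is given for them. The bounds of the other 17 ran from at least 1.18-fold (Plk1 and Aurkb) to at least 7.32-fold (Top2a, with 38.7, 140, 0, 98.4 and 52.8 CPM in tumors 1 to 5), and they describe pooled counts without a test. Tumor-allele RNA stood at 0, 7.82, 2.38, 27.5 and 22.6 CPM in this gate, and its part in the values was not tested. With total UMIs as the scale 460 genes were higher and 669 lower in place of 622 and 507, and again 0 members.

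Of the brakes on the cycle, 4 of 16 tested in the myeloid gate and 4 of 14 in the endothelial gate were higher and none lower, where 15.5% and 9.96% of all genes were higher. Cdkn1a changed by 4.24 ± 0.63 in myeloid cells and 3.60 ± 0.34 in endothelial cells on the log2 scale, and Gadd45g, a stress-induced inhibitor, by 3.0 ± 0.48 and 3.56 ± 0.74. Of other mitotic genes, 10 of 18 and 2 of 11 were higher, among them the chromatin protein Hmgb2 by 2.51 ± 0.39 and 2.29 ± 0.55. Of other replication genes, 4 of 19 and 1 of 12 were higher, shares near those of all genes, and Orc4, of the origin recognition complex, was lower in both, by -0.92 ± 0.28 and -1.71 ± 0.39.

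Shares of cells were read after thinning each cell to 2000 UMIs, since a deeper cell shows more members. At least 2 mitotic members were found in 9.68%, 27.4%, 15.0%, 20.6% and 42.7% of the tumor-cell gate in tumors 1 to 5, and at least 2 S-phase members in 11.3%, 33.3%, 26.3%, 22.0% and 36.4%. Tumor 5 was the highest in both and tumor 1 the lowest. Cells with under 2000 UMIs were left out, 16, 10, 13, 0 and 9 of them, and before thinning the mitotic shares were 11.5%, 44.6%, 26.9%, 40.3% and 64.1% and the S-phase shares 21.8%, 61.5%, 48.4%, 58.0% and 60.9%. Neuron-gated cells of tumors 1, 2, 3 and 5 gave 0.813%, 12.2%, 0% and 25% for mitotic members, beside the progenitor marker levels of 282 to 826 CPM given above. The tumor-cell gate was above the neuron gate of its own library in 4 of 4 mice, by 14.2 ± 3.75 percentage points for mitotic and 19.3 ± 8.63 for S-phase members (SD, n = 4). The difference was 9.27 points for mitotic members at a bar of 1 member and 21.7 unthinned, and 36.4 points for S-phase members unthinned and 7.84 at 5 members, in 4 of 4 mice each time.

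The myeloid gate gave mitotic shares of 3.70%, 13.8%, 1.10%, 14.4% and 24.2% in tumors 1 to 5 and 3.64%, 0%, 0% and 0% in controls. The neuron gate had lost its cells with an allele UMI, while the myeloid and endothelial gates had not, so these gates were not filtered alike. The myeloid gate held 7.04, 26.7, 1.99 and 24.8 CPM of allele RNA in tumors 1, 2, 3 and 5. Against neurons of the same library the myeloid gate was higher in 3 of 4 mice. In tumor 5 it was below them, where the neuron share of 25% came from 48 cells (95% exact binomial interval 13.6% to 39.6%). The order in tumor 5 was the other way before thinning, 48.6% against 37.1%, and at 5 members, 6.37% against 2.08%. Over the 4 mice the myeloid gate was above the neuron gate by 1.21 points on average, in 4 of 4 by 7.96 points unthinned and by 2.61 at 5 members, in 2 of 4 by 1.72 points with 1000 UMIs, and in 0 of 4 at 1 member, where the mean difference was -1.83 points. With gates of 2 and 4 markers the mean differences were -0.11 and -0.07 points. The sign of this mitotic difference thus moved with the setting. For S-phase members the myeloid gate was above the neuron gate by 4.31 points on average, in 3 of 4 mice. That mean was positive in every setting, from 1.21 points at 5 members to 15.5 unthinned. The myeloid S-phase shares overlapped between groups, 4.76% to 19.1% in tumors and 2.47% to 10.1% in controls. The endothelial gate gave mitotic shares of 4.00%, 20.3%, 2.73%, 18.2% and 25.6% in tumors. They were 0% in every control except control 3, where 1 of 18 cells made 5.56%. It exceeded the neuron gate in 4 of 4 mice by 3.65 percentage points on average, but in 2 of 4 by 1.30 points when thinned to 1000 UMIs, in 3 of 4 by 1.30 points with a gate of 2 markers, and by 2.17 points without tumor 2. Before thinning, the mitotic shares were 3.88%, 31.4%, 8.43%, 31.8% and 48.6% in the myeloid gate of tumors, with medians of 2429 to 6289.5 UMIs, and 1.05%, 19.9%, 2.48% and 37.1% in the neuron gate of tumors 1, 2, 3 and 5, with medians of 1867 to 2608 UMIs. Thinning left out 69, 4, 83, 0 and 5 myeloid-gated cells of tumors 1 to 5, 89 of control 1 and none of the other controls. At a stricter bar of 5 mitotic members, chosen after seeing the data, the shares were 8.06%, 14.2%, 8.75%, 12.3% and 20.1% in the tumor-cell gate, 0.366% to 7.02% in the myeloid gate of tumors and 0% to 2.08% in their neurons.

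**Figure D4:**
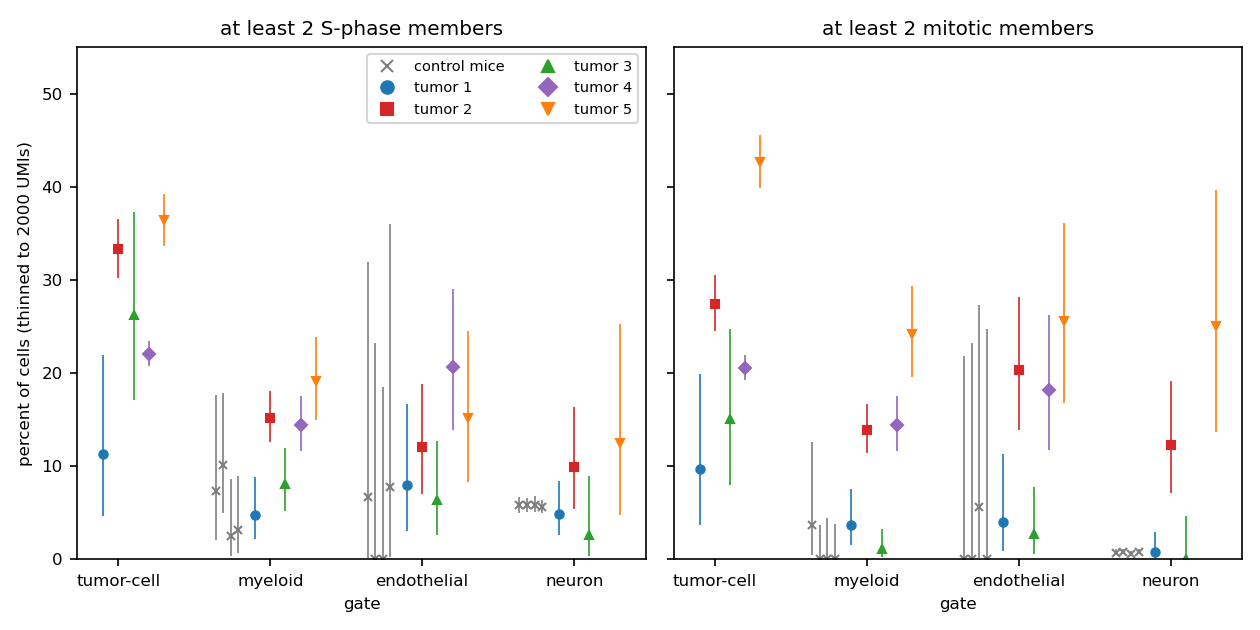
Percent of cells, thinned to 2000 UMIs, with at least 2 S-phase (left) or at least 2 mitotic (right) members in 4 gates, 1 symbol per library with its 95% exact binomial interval, which covers counting error only. Tumor cells reach 42.7% for mitotic members in tumor 5, whose neuron gate is at 25%. Control neurons lie between 0.558% and 0.784% for mitotic members and between 5.64% and 5.86% for S-phase members.

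The mitotic UMIs of the tumor-cell gate were also counted by cell, as a description, since the cells are picked by the same UMIs. Cells with at least 5 mitotic members made up 8.97%, 22.3%, 11.8%, 19.6% and 32.3% of the tumor-cell gate before thinning and held 97.8%, 93.8%, 85.1%, 93.2% and 91.6% of its mitotic UMIs. The most mitotic members seen in 1 thinned cell were 18, 20, 11, 21 and 20 of the 25. Both kinds often met in 1 thinned cell: 6.45%, 16.7%, 11.3%, 12.0% and 22.0% of cells had at least 2 members of both kinds, 4.84%, 16.7%, 15.0%, 10.1% and 14.4% of S-phase members alone, and 3.23%, 10.8%, 3.75%, 8.62% and 20.7% of mitotic members alone. S-phase members were thus found in 51.5% to 75.0% of the cells with mitotic members and in 5.36% to 25.1% of the others. Control neurons, thinned alike, gave 5.64% to 5.86% for at least 2 S-phase members. Tumor 5 had the largest share with mitotic members alone and tumor 3 the highest share of S-phase members among its mitotic cells, from 12 cells.

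Tumor cells with at least 2 mitotic members before thinning were then set against tumor cells with none. This was done in tumors 2, 4 and 5, the mice with at least 30 of each (398 and 253, 1426 and 1158, 762 and 179 cells). Of the first kind, 199, 693 and 384 cells had at least 5 mitotic members. At the bar of 2, 19.9% and 37.1% of neuron-gated cells of tumors 2 and 5 qualified too, and the part of free RNA in this class was not tested. The mitotic members made these groups, so no fold is given for them. Of 12525 genes, 10.3% were higher and 7.54% lower in the edgeR fit with the mouse as a block, and with total UMIs as the scale 1046 were higher and 1369 lower in place of 1291 and 944. All 77 other mitotic genes and 53 of 56 other replication genes were higher. Since the cells were picked by mitotic members, genes of the same program are likely to be higher by that choice. These counts, and the differences of single cycle genes below, describe the 2 kinds of cells and are not a test. Cells with mitotic members were deeper, with medians of 7594, 8468.5 and 5051 UMIs against 4999, 5993.5 and 3662, and the part of depth in these calls was not tested.

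Gmnn, geminin, which blocks a second round of licensing, had 125, 101 and 81.8 CPM in the cells with mitotic members of tumors 2, 4 and 5 and 11.3, 6.97 and 12.3 CPM in those without, a log2 difference of 3.71 ± 0.17. Tk1, thymidine kinase, had 51.2, 56.3 and 34.6 CPM against 1.41, 1.58 and 0 CPM. Among the S-phase members, Pclaf had 273, 175 and 209 CPM against 12.7, 5.13 and 10.9 CPM, while Slbp, the histone mRNA binding protein, had 124, 65.9 and 93.2 CPM against 50.7, 29.6 and 47.9 CPM. Both were higher in each of the 3 mice.

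Brakes and state genes were called in both directions. Of 20 brakes, 5 were higher and 1 lower, the largest rise being that of Rbl1 (p107), with 23.8, 20.4 and 23.2 CPM against 7.74, 5.26 and 6.84 CPM (log2 1.94 ± 0.21, edgeR adjusted p = 3.77e-07). Of 20 genes of tumor cell states, 4 were higher, 6 lower and 10 not called. Dcx, a microtubule protein of young neurons, had 5.43, 9.79 and 39.6 CPM in cells with mitotic members and 18.3, 22.5 and 82.1 CPM in those without, lower in 3 of 3 mice by -1.14 ± 0.16 (edgeR adjusted p = 1.81e-05). Sox4, a factor of differentiating progenitors, had 214, 211 and 445 CPM against 309, 332 and 676 CPM (-0.54 ± 0.08, edgeR adjusted p = 5.52e-05). Dcx, Sox4, Hes6 and Nes are all in the progenitor marker list of the gate, and they did not move as one. Hes6, a neurogenic factor, was lower (-0.37 ± 0.10, edgeR adjusted p = 0.0135) but at 0.18 with tumor cells gated by the fusion sequence alone (adjusted p = 0.768), Sox2 (-0.12) and Fabp7 (-0.02) were not called, and Nes, the filament nestin, was higher in 3 of 3 mice, with 69.0, 178 and 71.7 CPM against 60.5, 122 and 65.7 CPM (0.45 ± 0.12, edgeR adjusted p = 0.0101), as did the imprinted RNA H19 (0.43 ± 0.10). Gfap, an astrocyte filament, fell by 0.37 on the log2 scale though it was higher in tumor 5.

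**Figure D5:**
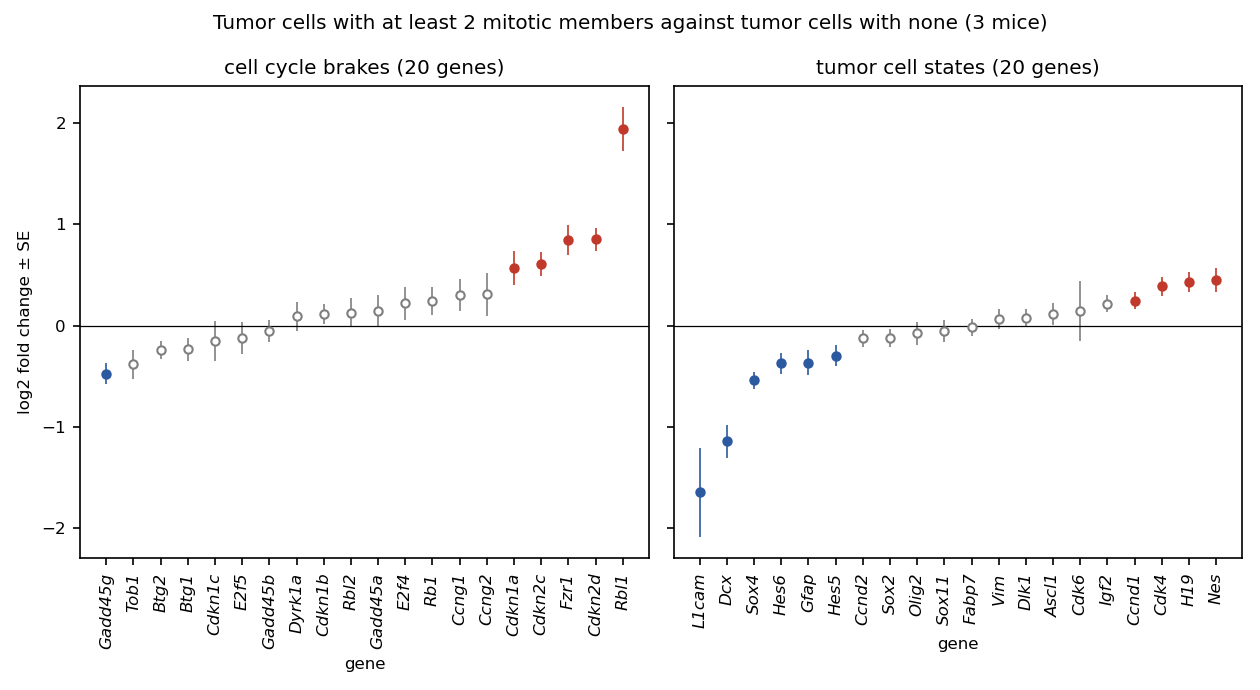
Log2 difference ± SE (edgeR, mouse as block, 3 mice) of 20 cell cycle brakes and 20 genes of tumor cell states in tumor cells with at least 2 mitotic members against tumor cells with none. Rbl1 lies highest at 1.94, L1cam and Dcx lie lowest at -1.64 and -1.14, and most other genes lie near 0.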

How the data were processed

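Single-cell RNA was measured in 5 tumor and 4 control libraries. The authors aligned reads to mm10 with Cell Ranger (version 7 per the labels, 6.1.2 in the matrix header) and deposited raw UMI counts per gene and barcode. In control 4 the deposited matrix and its feature list differ in length, so its mouse genes were read by the gene order shared by all libraries and its transgene sequences and barcodes were not read. From these counts up to 10000 of the largest barcodes per library were taken. A 2-component mixture was fitted per library to mitochondrial share and gene number together (scikit-learn 1.9.0). Cells with 200 to 6000 genes in the component of lower mitochondrial share were kept, so the cut also depended on gene number. Doublets were removed with Scrublet (scanpy 1.11.5) at 0.8% per 1000 cells. UMIs were summed per mouse and gate, with at least 30 cells per mouse (10 for endothelial cells, a minimum set after seeing the data), and tested with edgeR 4.0.16 (TMM, filterByExpr, quasi-likelihood, Benjamini-Hochberg over all genes tested, threshold 0.05), after a check on simulated data. Comparisons between gates carried the mouse as a block. DESeq2 1.42.0 and limma 3.58.1 (voom) were alternatives. The members and gene lists were chosen with earlier results of these data known. For that reason the planned exact permutation tests of cell shares over mice were run but no p is printed. Named besides the members were, per comparison and list, up to 4 called genes with the smallest p, and all genes of the tumor cell states list. Intervals are exact binomial and, like floors of 3 UMIs, cover counting error only. Replicate numbers did not pair samples.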

Additional observations from a re-analysis of the deposited data

Results flagged for a closer look

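Of 89 groups of values examined for a sample far from the others, 7 held one, and chance alone gives about 1 in 20. The ratio of S-phase to mitotic UMIs of tumor 3 stood apart from the other 4 tumors in the tumor-cell gate, at 1.64, and in the myeloid gate, at 2.62. Control 1 stood apart in the share of myeloid-gated cells with at least 2 mitotic members, 3.64% (2 of 55 thinned cells) where the other 3 controls had 0%. Before thinning, this share was 1.39% in control 1 and 1.01%, 1.23% and 0% in controls 2 to 4. Control 3 stood apart in the same share of endothelial-gated cells, 5.56%, which was 1 of 18 cells. In both groups the other 3 controls were at 0%, so any value above 0 would have been flagged. Within the tumor-cell gate, Gins2 was high in tumor 2 at 40.8 CPM, Bub1 was low in tumor 3 at 9.89 CPM, and Nde1 was low in tumor 1 at 26.4 CPM.

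Outside the cells that were compared, the 3000 barcodes with fewest UMIs held mitotic members in every tumor library, up to 1473 CPM and at least 149 CPM, where the controls reached 40.5 CPM.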

How the results depend on the processing

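Over all kept cells the number of members called higher ranged from 38 to 42 when 1 library was left out, against 41 with all. Members called in the myeloid gate (9) became 0 with limma voom, 30 without the filter, 14 with a gate of 2 markers, 4 with total UMIs, 0 in cells without tumor-allele or progenitor RNA, and 2 to 15 with 1 library left out. In the cells without tumor-allele or progenitor RNA only Pcna and Slbp could be tested, so that 0 covers no mitotic member. In the endothelial gate (0) the members called became 2 with DESeq2, 18 without the filter, 4 with a gate of 2 markers, 5 with the replicate block, and 0 to 1. The replicate numbers did not pair the samples (correlations of 0.00256 to 0.0453 over all cells, -0.0897 to 0.0845 in myeloid cells). Against the myeloid gate, calls became 13 without the mouse block and 13 to 38 with 1 tumor left out. Against the endothelial gate they became 12, and 39 without the filter, and 13 to 29. In cells with mitotic members, other replication genes called (53) became 23 without the mouse block and 52 to 54, and other mitotic genes (77) 76 to 77. Tumor minus control shares, whose permutation tests are not used as support, lost a pass at 0.05 in all cells for S-phase members (12.9 points) at 8.03 with 1000 UMIs, 20.8 unthinned, 13.2 at 1 member and 12.9 by absolute difference, and for mitotic members at 16.0 by absolute difference. They gained one for myeloid mitotic members (23.9 unthinned, 6.46 at 3 members), endothelial S-phase members (4.96 with 1000 UMIs, 4.81 at 3) and endothelial mitotic members (35.3 at 1). With 1 library fewer, and so fewer arrangements, both all-cells calls were lost without any control or tumor 1, 2, 4 or 5, and myeloid mitotic and endothelial S-phase gained a pass without tumor 3. Leaving out 1 mouse gave 9.69 to 16.0 and 11.2 to 19.5 (all cells), 4.84 to 8.43 and 7.35 to 13.1 (myeloid), 6.79 to 10.4 and 9.91 to 15.6 (endothelial). Mean tumor-cell shares were 25.9% S-phase (15.3 with 1000 UMIs, 50.1 unthinned, 53.1 at 1 member, 16.0 at 3, 7.73 at 5), 23.1% mitotic (37.5 unthinned, 41.6 at 1, 12.7 at 5), 13.7% both (7.63 with 1000 UMIs, 28.9 unthinned, 28.6 at 1, 8.69 at 3, 3.35 at 5) and 64.7% neither (41.3 unthinned, 33.9 at 1, 82.9 at 5), and 23.2 to 29.5, 18.2 to 26.4, 11.6 to 15.5 and 59.5 to 70.2 with 1 mouse left out. Of 238 named gene comparisons, 1 changed sign. Counted over the settings, 3198 outcomes were the same as the main one, 307 weaker, 87 stronger and 1 reversed. Hes6 in cells with mitotic members was -0.37, and 0.18 (log2) with tumor cells gated by the fusion sequence alone. The cause of these shifts was not tested. The progenitor comparison was not run (0 to 1 control cells), nor the endothelial one at a mitochondrial limit of 10% or a gate of 4 markers.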

Other observations

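Cells gated by progenitor markers, which control brains lacked (0 to 1 cells per library), carried mitotic members at 9338, 3857, 1717, 2423 and 3170 CPM in tumors 1 to 5, from 12, 132, 87, 691 and 952 cells. Their S-phase members stood at 1671, 1494, 1813, 848 and 1348 CPM. Tumor 3 had again the highest S-phase and the lowest mitotic sum, as in the tumor-cell gate, whose cells this gate partly shares. Astrocyte-gated cells had mitotic members at 126, 1034, 197, 662 and 825 CPM in tumors and 20.9 to 80.7 CPM in controls. Their progenitor markers summed to 500, 1316, 2284, 3731 and 1622 CPM in the same tumors and to 293 to 985 CPM in controls, and the part of these cells or of the low barcodes in the mitotic values was not tested.

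In myeloid cells that had neither a tumor-allele UMI nor a progenitor marker, 3 of the 4 brakes called in the whole gate were called again, with 3 controls against 5 tumors, and the fourth, Cdkn1c, did not pass the filter on low counts. Cdkn1a differed there by 3.94 (edgeR adjusted p = 0.00319), Gadd45g by 2.83 (edgeR adjusted p = 0.00092) and Gadd45b by 3.27 (edgeR adjusted p = 0.00957) on the log2 scale. Of the other mitotic genes, Hmgb2 differed by 2.14 (edgeR adjusted p = 0.00537).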
